A study of Danio rerio with 16 samples.

Results

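Expression of 10 genes, grouped here as spermatogonial stem cell and progenitor genes, was followed through the zebrafish testis libraries. They were nanos2, nanos3, dazl, dnd1, gfra1a, gfra1b, zbtb16a, zbtb16b, sall4 and lin28a. Whether each is confined to those cells was not tested. The genes were chosen by name, and their rows were found by RefSeq accession. A row was found for 8 of the 10 genes among the 14792 rows of each bulk-seq table, for 1 of 10 among the 6847 rows of the pseudo bulk-seq table, and for 2 of 10 among the 4916 transcripts of the scRNA-seq cluster sheets. No row of nanos2 or zbtb16b was used here, and lin28a was matched through its synonym to the record lin28ab (NM_201091).

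All fish were males of the AB strain with no genetic change. CD and CI were control testes of fish about 1 year old: 1 testis was minced, digested with collagenase, shaken for 1.5 h and freed of dead cells (CD, 3 libraries), and the testis of the other side was left intact (CI, 3 libraries). TB and TP were dissociated testes of fish about 1.5 years old that had been exposed for 1 h at 3 weeks and again at 7 weeks after fertilization to the dioxin TCDD at 50 pg/ml in 0.1% DMSO (2 libraries each). CB and CP were their controls, treated with 0.1% DMSO alone (3 libraries each). TB and CB were measured by bulk-seq. TP and CP came from the same suspensions through droplet-based scRNA-seq, collapsed into pseudo bulk-seq counts, and about 5000 cells were loaded per replicate. The labels give 0.1% DMSO for all control samples, CD and CI included. They also print a concentration of 50 pg/ml before DMSO, whereas the methods give vehicle only. The exposure batch of a library is not given in the labels, and p-values measure the spread between these libraries.

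Spermatogonial stem cells renew themselves and feed the spermatogenic lineage, which passes through dividing spermatogonia, meiosis and spermatids to sperm. Much of their known regulation is post-transcriptional: Nanos proteins are zinc-finger RNA-binding repressors, Dazl promotes translation of germ cell mRNAs, Dnd1 shields germ cell mRNAs from microRNAs in zebrafish, and Lin28 blocks maturation of let-7 microRNAs in mammals. In mouse testis, niche-derived GDNF acts on stem cells through its co-receptor Gfra1 together with Ret, while the transcription factors Zbtb16 (also called Plzf) and Sall4 keep progenitors undifferentiated.

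Total counts were 22948119 to 26405924 in CD and 7968350 to 29144951 in CI. They were 4828801 and 13242441 in TB against 17638247 to 36172885 in CB, and 5324090 and 8067401 in TP against 3490409 to 9987998 in CP. Levels are given as CPM, a unit that sets each count against the size of its library, here with TMM scaling. Since 3′ mRNA libraries give about 1 read per transcript end, CPM values of different genes can be set side by side without gene length. On the first principal component, which held 44.6% of the variance in CDxCI and 52.6% in TBxCB, CI replicate 2 and TB replicate 2 stood apart from all other libraries of their tables. TB replicate 2 was also the shallowest bulk-seq library. The Sertoli cell gene gsdf averaged 12.5 ± 4.4 CPM in CD libraries, against 1420 ± 337 CPM in CI libraries (SD, n = 3 each), so the defining marker of the cells that nurse the germ line was present in both preparations at very unequal levels. In bulk libraries, fewer cells of a type and less RNA per cell cannot be told apart.

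dazl was by far the most abundant of the 8 genes with a bulk row. It averaged 793 ± 174 CPM in CD, 606 ± 217 CPM in CI (SD, n = 3 each), 405 ± 370 CPM in TB (n = 2) and 923 ± 120 CPM in CB (n = 3), at or above the 97.3th percentile of all rows in each group. dnd1 and zbtb16a came next, between 30.9 and 90.3 CPM as group means. Their ranges over libraries overlapped in CD, CI and TB, and did not in CB, where dnd1 was the higher. lin28a, nanos3 and sall4 lay between 1.85 and 7.98 CPM, and their neighbouring ranges overlapped in every group except sall4 over nanos3 in TB. Both gfra1 paralogs were at or under 1.32 CPM as group means, and gfra1b was the lowest of the 8 in each of the 4 groups.

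**Figure D1:**
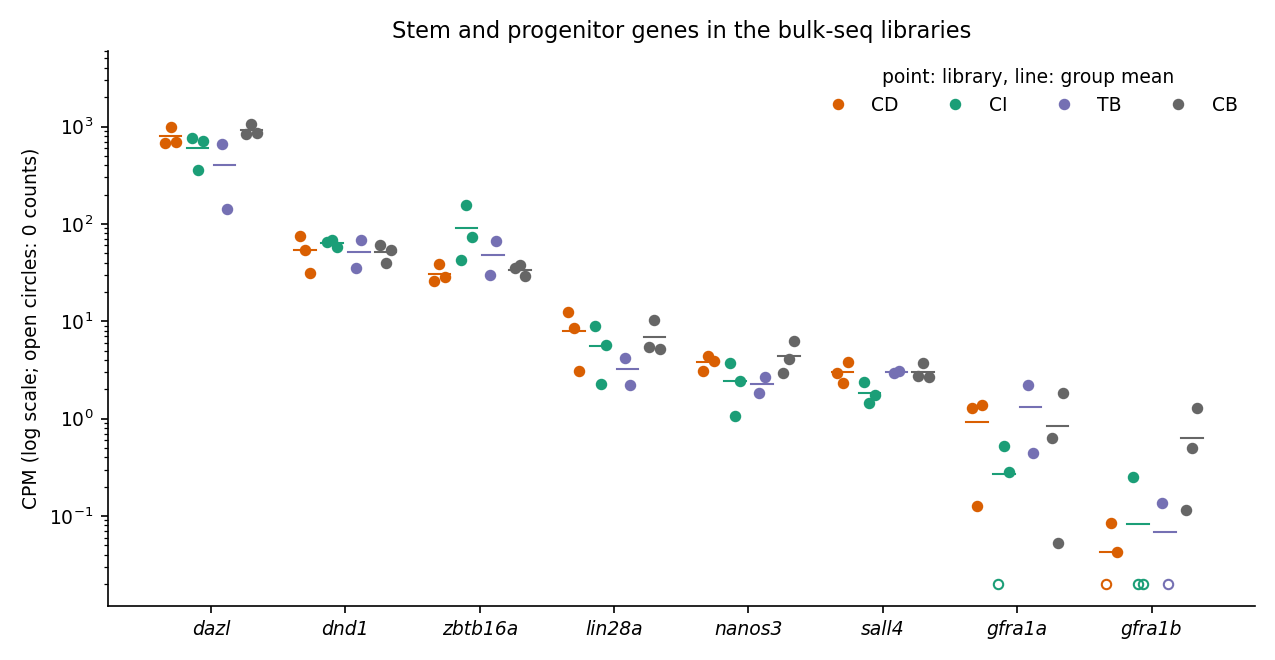
CPM of the 8 genes in each bulk-seq library on a log scale, with 1 point per library, open circles at the foot of the axis for libraries with 0 counts and a short line at the group mean. dazl sits between 143 and 1061 CPM, while the gfra1 paralogs lie under 2.2 CPM in every library.

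The first comparison, CDxCI, asked what tissue dissociation does to transcript levels in control testes. By the paper's methods the intact testes were kept in RNALater before freezing, a step not given for the dissociated ones. Dissociation and this preservation cannot be told apart in CDxCI. Among the RNA-binding factors, none passed the test. dazl (NM_131524) was at 685, 994 and 701 CPM in CD, against 756, 357 and 705 CPM in CI. The groups overlapped, and the lowest value was that of CI replicate 2. The log2 fold change was 0.39 (95% interval −0.23 to 1.00, adjusted p = 0.5 by the quasi-likelihood test of edgeR).

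dnd1 (NM_212795) was at 74.9, 54.3 and 31.0 CPM in CD, against 65.0, 68.4 and 57.5 CPM in CI. The CD libraries spread widely around the narrow CI range, and the log2 fold change was −0.25 (95% interval −0.90 to 0.40, edgeR adjusted p = 0.702). Without CD replicate 3 the log2 fold change was 0.02. nanos3 (NM_131878), a germ cell RNA-binding repressor, was at 3.12, 4.36 and 3.91 CPM in CD, against 3.74, 1.06 and 2.44 CPM in CI. The groups overlapped, with CI replicate 2 the lowest at 8 counts. Its log2 fold change was 0.65 (95% interval −0.47 to 1.77, edgeR adjusted p = 0.541). lin28a was at 12.3, 8.56 and 3.05 CPM in CD, against 8.85, 2.25 and 5.73 CPM in CI. Here too the groups overlapped and CI replicate 2 was lowest, with a log2 fold change of 0.51 (95% interval −0.75 to 1.77, edgeR adjusted p = 0.683).

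The GDNF co-receptor genes were near the limit of detection. gfra1a (NM_131730) had 37, 3 and 32 counts in CD, equal to 1.30, 0.127 and 1.37 CPM, against 0, 4 and 8 counts in CI, equal to 0, 0.529 and 0.283 CPM. A floor of 3 counts stands for 0.377 CPM in CI replicate 1, the library with none. CD replicate 2 fell within the CI range while the other CD libraries lay above it, and the log2 fold change of 1.76 had a 95% interval from −0.93 to 4.45 (edgeR adjusted p = 0.484). gfra1b (NM_131731) had 0, 2 and 1 counts in CD, against 2, 0 and 0 counts in CI. No library reached 3 counts, the row was left out by the filter on low counts, and a difference was not detectable at this depth.

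Of the transcription factors, zbtb16a (NM_199635) was the member that differed most clearly. It was at 26.1, 38.3 and 28.4 CPM in CD, against 42.4, 155 and 73.4 CPM in CI. Every CD library lay under every CI library, and CI replicate 2 was the highest of the 6. The mean was 30.9 ± 6.50 CPM over the 3 CD libraries, against 90.3 ± 58.4 CPM over the 3 CI libraries (SD). This gave −1.55 as the log2 fold change, with a standard error of 0.42 and a 95% interval of −2.49 to −0.61. The unadjusted p was 0.00454 and the adjusted p over 12773 rows was 0.105 in edgeR, so zbtb16a was past the threshold for differentially expressed genes, DEGs (an unadjusted p under 0.01, with levels differing by 1 or more on the log2 scale) and not past an adjusted p of 0.05. The adjusted p was 0.00297 with DESeq2 and 0.0177 in edgeR without CI replicate 1, and ranged from 0.00297 to 0.320 over all alternatives. Each dissociated testis was paired with the intact testis of the same fish. With the replicate number as a block the log2 fold change was −1.37 and the edgeR adjusted p 0.032, which is past the threshold, although the numbers are not stated to mark a fish. The value was −0.91 without CI replicate 2.

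Sall4, a zinc-finger factor of pluripotent and germ cells, did not share that direction. sall4 (NM_001080609) was at 2.94, 2.33 and 3.82 CPM in CD, against 2.37, 1.46 and 1.73 CPM in CI. The groups touched at a single pair of libraries, CD replicate 2 and CI replicate 1, and the log2 fold change was 0.71 (95% interval −0.37 to 1.79, edgeR adjusted p = 0.482).

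In total, 0 of the 7 members tested were called in CDxCI at an adjusted p under 0.05 with edgeR, where 2.22% of all rows were called. zbtb16a was the 1 member at an unadjusted p under 0.05, as were 17.3% of all rows, the 1 member called by DESeq2, as were 6.53% of all rows, and the 1 member called with the replicate block. By the DEG thresholds 1 of 7 was past, against 4.79% of all rows. The groups did not overlap for 1 of 7, against 26.3% of all rows. The log2 fold change was above 0 for 5 of the 7 and below 0 for 2, with a median of 0.51, while the median over all rows was 0.01.

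Markers of somatic cells differed between CD and CI together with zbtb16a. The summed level of 13 Sertoli cell marker rows was 43.2 to 56.7 CPM in CD, against 1544 to 2384 CPM in CI, with 1 to 3 markers at 0 counts in CD libraries and 1 or 2 in CI libraries. The summed level of 10 Leydig cell marker rows was 52.8 to 252 CPM in CD, against 3914 to 5611 CPM in CI, with at most 1 marker at 0 counts in a library. Within CI, the libraries ranked the same way for zbtb16a and for the summed Sertoli, Leydig, smooth muscle and leukocyte markers: replicate 2, then 3, then 1. The summed oocyte markers ranked that way too, and the erythrocyte markers ranked 2, 1, 3. dazl and the summed spermatid and sperm markers ranked 1, 3, 2. The sum of 11 general germ cell genes, and the member dnd1, ranked 2, 1, 3. Of those general genes, asz1, dmrt1 and hsp90aa1.2 ranked as zbtb16a did. Another set, piwil1, ddx43 and ca15b, ranked as dazl did, and the rest matched neither, so the zbtb16a order was not particular to somatic markers. Within CD the ranks matched only in part. zbtb16a ranked replicate 2, then 3, then 1, as did the summed smooth muscle and oocyte markers. Sertoli markers ranked 1, 3, 2 and Leydig markers 1, 2, 3. Leukocyte markers and spermatid and sperm markers ranked 3, 1, 2, and erythrocyte markers 3, 2, 1. The part of these cells in the zbtb16a result was not tested.

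Among other genes of the same pathways, few passed, beside the 2.22%, 17.3% and 6.53% of all rows that met these 3 criteria. Of 9 tested rows of GDNF receptor signalling, 0 were called by edgeR (2 at an unadjusted p under 0.05, 1 with DESeq2), with a median log2 fold change of −0.09. Of 26 rows of RNA-binding partners of Nanos, Dnd1, Dazl and Lin28, 0 were called (1 at an unadjusted p under 0.05, 0 with DESeq2), with a median of −0.14. Of 11 rows of general germ cell genes, chiefly of the piRNA pathway, 0 were called (4 at an unadjusted p under 0.05, 1 with DESeq2), with a median of −0.03.

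The exceptions lay among other stem cell factors, meiotic genes and the niche. id3, an inhibitor of basic helix-loop-helix factors, fell to 21.7 ± 1.90 CPM in CD, against 58.1 ± 15.9 CPM in CI libraries (log2 fold change −1.43, standard error 0.25, edgeR adjusted p = 0.0148), and was the only one of 24 stem cell and progenitor rows called. rec8b, a meiotic cohesin gene, rose to 63.3 ± 12.3 CPM in CD, against 27.0 ± 5.42 CPM in CI libraries (log2 fold change 1.23, standard error 0.24, edgeR adjusted p = 0.0266), and was the only one called of 14 rows of differentiating spermatogonia and meiotic entry, of which 13 had a log2 fold change above 0. Of 31 niche ligand and receptor rows, 6 fell and 0 rose. These included gsdf (log2 fold change −6.83), the Leydig cell hormone gene insl3 at 91.8 ± 69.3 CPM in CD, against 2913 ± 221 CPM in CI libraries (log2 fold change −4.99, edgeR adjusted p = 0.0243), and the anti-Müllerian hormone gene amh at 0.413 ± 0.046 CPM in CD, against 9.63 ± 4.19 CPM in CI libraries (log2 fold change −4.51, edgeR adjusted p = 0.000997; SD, n = 3 each).

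The second comparison, TBxCB, asked what early TCDD exposure left in dissociated adult testes as seen by bulk-seq. Its values rest on matching counts to accessions in reverse row order, since the deposited order paired them the wrong way round. The RNA-binding factors dazl, lin28a and nanos3 had both TB libraries under all CB libraries, and none passed the test. dazl was at 666 and 143 CPM in TB, against 843, 1061 and 864 CPM in CB. TB replicate 1 lay just under the CB range and TB replicate 2 far under it. The log2 fold change was −1.18 (95% interval −2.41 to 0.05, unadjusted p = 0.0589, adjusted p = 0.557 from edgeR). It was −0.40 without TB replicate 2 and −2.68 without TB replicate 1 (edgeR adjusted p = 0.0213 in that fit, and 0.0213 to 0.997 over all alternatives), so 1 library set its size.

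lin28a was at 4.18 and 2.23 CPM in TB, against 5.49, 10.2 and 5.15 CPM in CB, with a log2 fold change of −1.07 (95% interval −2.33 to 0.19, edgeR adjusted p = 0.564). The lowest of these values rested on 10 counts, in TB replicate 2. nanos3 was at 1.85 and 2.67 CPM in TB, against 2.97, 4.11 and 6.21 CPM in CB. Here TB replicate 1 was the lower of the pair, and the log2 fold change was −0.99 (95% interval −2.35 to 0.36, edgeR adjusted p = 0.588). dnd1 was at 34.9 and 68.2 CPM in TB, against 61.0, 39.5 and 53.5 CPM in CB. The TB libraries lay on either side of the CB range, and the log2 fold change was 0.00 (95% interval −0.83 to 0.84, edgeR adjusted p = 0.997). It was −0.49 without TB replicate 2.

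For the receptors, gfra1a had 32 and 2 counts in TB, equal to 2.19 and 0.445 CPM, against 11, 2 and 38 counts in CB, equal to 0.629, 0.053 and 1.83 CPM. The ranges overlapped in part, with TB replicate 1 above every CB library and CB replicate 2 under both TB libraries. The log2 fold change was 0.77 (95% interval −2.21 to 3.74, edgeR adjusted p = 0.857), which became −0.88 without TB replicate 1. gfra1b had 2 and 0 counts in TB, against 2, 19 and 27 counts in CB. CB replicates 2 and 3 held nearly all of its counts. The row was left out by the filter, and without that filter its edgeR adjusted p was 0.639.

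The transcription factors overlapped between groups. zbtb16a was at 30.2 and 66.4 CPM in TB, against 35.5, 37.5 and 28.9 CPM in CB. TB replicate 1 lay within the CB range and TB replicate 2 above it, and the log2 fold change was 0.50 (95% interval −0.35 to 1.36, edgeR adjusted p = 0.647), or −0.11 without TB replicate 2. sall4 was at 2.94 and 3.12 CPM in TB, against 2.75, 3.68 and 2.70 CPM in CB. Both TB values fell inside the CB range, and the log2 fold change of −0.01 (95% interval −1.26 to 1.25, edgeR adjusted p = 0.997) changed sign under 6 of 10 alternatives, which lay between −0.08 and 0.20.

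**Figure D2:**
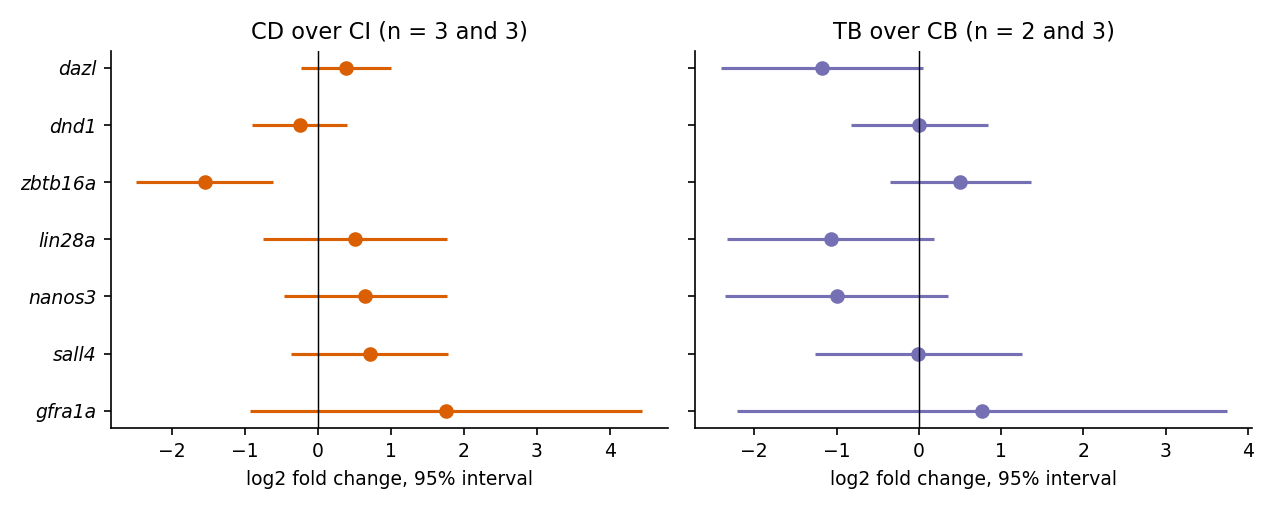
log2 fold change of the 7 members tested, with its 95% interval from edgeR's quasi-likelihood fit, for CD over CI and for TB over CB. The interval of zbtb16a in CD over CI, −2.49 to −0.61 leaves out 0, and every other interval shown includes it.

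In TBxCB, 0 of 7 members were called, against 0% of all 12939 rows. edgeR had 1149 rows (8.88%) at an unadjusted p under 0.05, none of them a member, and DESeq2 called 11 rows (0.101%), also none of them a member. By the DEG thresholds 0 of 7 members were past, against 1.3% of all rows. The groups did not overlap for 3 of 7, against 30.1% of all rows. The log2 fold change was above 0 for 3 members and below 0 for 4, with a median of −0.01, while the median over all rows was −0.05. No row of the lists of related genes was called either, by edgeR or by DESeq2. The median log2 fold change was 0.71 over 9 rows of GDNF receptor signalling (2 at an unadjusted p under 0.05), 0.15 over 26 RNA-binding partners (3), 0.08 over 24 other stem cell and progenitor factors (3), −0.27 over 11 general germ cell genes (1), −0.07 over 14 rows of differentiating spermatogonia and meiotic entry (2) and 0.19 over 27 niche rows (1).

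The make-up of the members' RNA, chiefly the share of dazl, set CI replicate 2 and TB replicate 2 apart from the other bulk-seq libraries. dazl made up 85.0% to 90.7% of the summed CPM of the 8 members in CD, 60.9% to 86.1% in CI, 89.7% and 50.1% in TB and 88.6% to 91.7% in CB. Per 100 CPM of dazl, there were 3.81 to 4.05 CPM of zbtb16a in CD, against 5.60, 43.5 and 10.4 CPM in CI replicates 1 to 3. The same ratio was 4.53 in TB replicate 1 and 46.3 in TB replicate 2, against 3.34 to 4.21 in CB. CI replicate 2 and TB replicate 2 therefore had about the same ratio of zbtb16a to dazl, but not of other members. Per 100 CPM of dazl, dnd1 was at 19.2 CPM in CI replicate 2 and 47.5 CPM in TB replicate 2. For nanos3 the values were 0.297 CPM in CI replicate 2 and 1.86 CPM in TB replicate 2. The somatic markers of these libraries differed widely. The summed Sertoli markers were at 2384 CPM in CI replicate 2, the highest of the 11 bulk-seq libraries. They were at 106 CPM in TB replicate 2, under TB replicate 1 (115 CPM) and the CB libraries (112 to 154 CPM). The summed Leydig markers were at 185 CPM in TB replicate 2, 200 CPM in TB replicate 1 and 119 to 340 CPM in CB.

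The low dazl of TB replicate 2 was not shared by every germ cell gene. Relative to TB replicate 1, on the log2(CPM + 1) scale, dazl differed by −2.21, with 2.38% of the rows tested lower still, while gfra1a differed by −1.14, lin28a by −0.68, dnd1 by 0.95, zbtb16a by 1.11, nanos3 by 0.37 and sall4 by 0.06. Thus 3 of the 7 members were lower in TB replicate 2 and 4 were higher. The median was −0.06 over all 12939 rows and 0.15 over the 11 general germ cell genes. As examples chosen after their values were seen, the germ cell RNA helicase gene ddx4 was at 900 and 1237 CPM in TB, against 854, 1407 and 1083 CPM in CB. The piRNA pathway gene tdrkh was at 51 and 8.02 CPM in TB, against 78.3, 76.8 and 78.2 CPM in CB. tdrkh thus set TB replicate 2 apart in the way dazl did, and ddx4 did not. TB replicate 2 held 4828801 counts, and its depth was not tested as a cause.

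**Figure D3:**
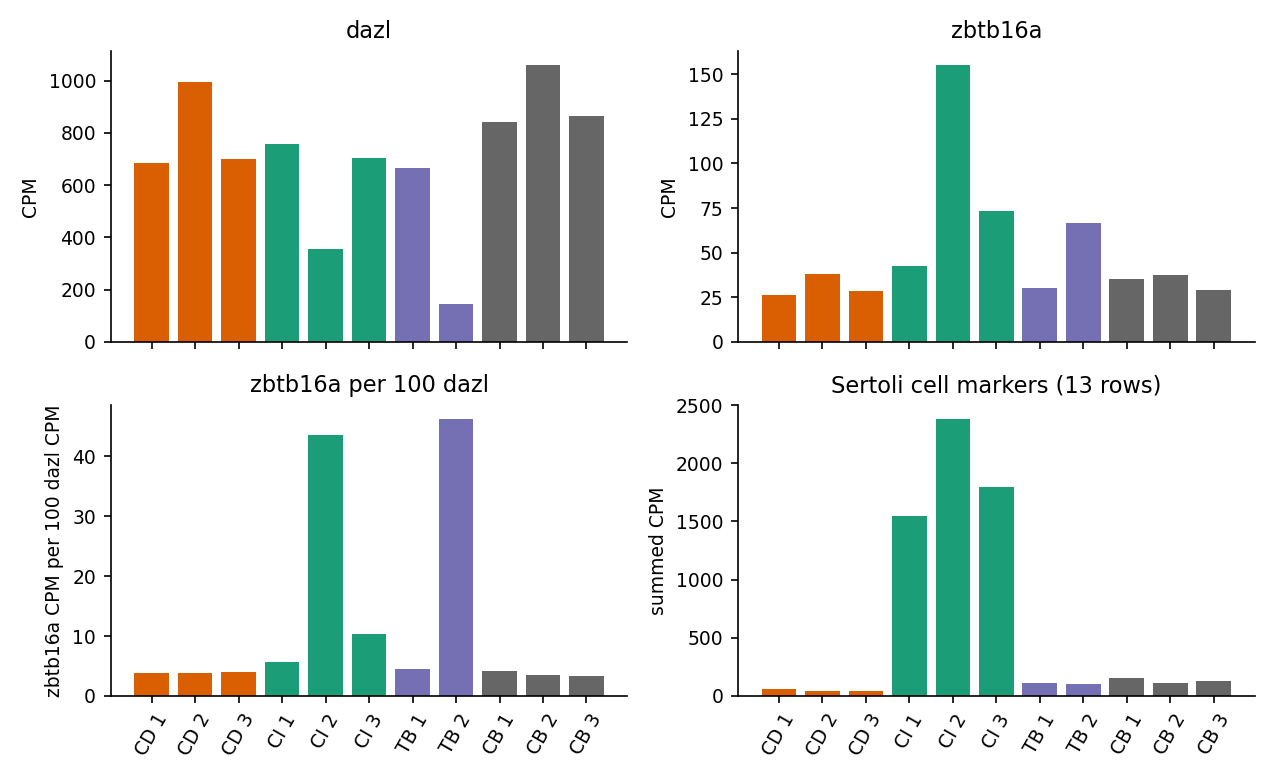
Bars for each bulk-seq library of dazl (CPM), zbtb16a (CPM), zbtb16a CPM per 100 dazl CPM, and the summed CPM of 13 Sertoli cell marker rows. The ratio is 43.5 in CI replicate 2 and 46.3 in TB replicate 2, whereas Sertoli markers are at 2384 CPM in the first and 106 CPM in the second.

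The third comparison, TPxCP, asked the same of TCDD exposure by pseudo bulk-seq. Only sall4 had a row, under a non-coding variant record of the gene (XR_225243) that is not the record counted in bulk-seq. It was at 25.1 and 22.6 CPM in TP, against 12.9, 19.1 and 17.5 CPM in CP, from 140 and 179 counts in TP and 44, 191 and 106 counts in CP. Both TP libraries lay above all CP libraries, in a table where the groups did not overlap for 64.9% of rows. The means were 23.8 ± 1.82 CPM in TP (n = 2) and 16.5 ± 3.22 CPM in CP (SD, n = 3), a log2 fold change of 0.51 (95% interval −0.01 to 1.03, unadjusted p = 0.0528, adjusted p = 0.115 from edgeR). So 0 of 1 members were called, against 28.1% of all rows at an adjusted p under 0.05 (45.0% at an unadjusted p under 0.05). DESeq2 called 0 of 1 as well, against 34.4% of all rows, and 0 of 1 passed the DEG thresholds, against 15.2% of all rows. Over all alternatives the log2 fold change stayed between 0.38 and 0.63. The summed level of 7 spermatid and sperm marker rows was 651 and 677 CPM in TP, against 1306 to 2277 CPM in CP, and its part in the sall4 values was not tested.

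The members were sparsely covered by pseudo bulk-seq. The smallest single count in that table, in any row and any library, was 30. Every row there thus held at least 30 counts in each of its libraries. A count of 30 stands for 3.00 to 8.60 CPM in CP and 3.72 and 5.63 CPM in TP. lin28a, nanos3, gfra1a and gfra1b averaged 6.95, 4.43, 0.837 and 0.639 CPM in CB. As numbers alone, the first pair lay within that CPM range and both gfra1 paralogs under it. Of bulk rows within 1.5-fold of these levels, 16.6%, 11.4%, 2.68% and 2.33% had the same accession in the pseudo bulk-seq table. sall4 averaged 3.04 CPM in CB, where the share was 7.50%. Its other record nevertheless had a pseudo bulk-seq row, at 12.9 to 25.1 CPM. CPM of the 2 methods is taken over different sets of rows, so the levels are not on a single scale. The part of level in the absent rows was not tested. dazl stood in contrast at 923 CPM in CB. Of 145 bulk rows within 1.5-fold of that level, 108 (74.5%) had the same accession in the pseudo bulk-seq table. With another record of the same symbol also allowed, the share was 82.8%, but no dazl row was among those used here. The paper's methods name different zebrafish reference assemblies for bulk-seq and scRNA-seq. The part of the reference in the absent rows was not tested. For dnd1 and zbtb16a, at 51.3 and 34.0 CPM in CB, the shares with the same accession were 53.2% and 48.0%. The scRNA-seq cluster sheets nevertheless listed dnd1, under the same record as in bulk-seq. No member had the same record in TBxCB and TPxCP, so the difference between its TCDD effects by the 2 methods could not be tested; over the 4388 shared rows, 307 were called for that difference.

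Among related genes, the counts called in TPxCP stand beside 28.1% of all rows, 595 higher and 1331 lower in TP. gdnfb, which encodes a ligand of the GDNF receptor and was the only row of its list, fell to 16.5 ± 3.87 CPM in TP, against 46.1 ± 8.52 CPM in CP (log2 fold change −1.48, standard error 0.26, edgeR adjusted p = 0.00760). Of 15 RNA-binding partners, 1 rose and 3 fell, with a median of 0.11. The poly(A)-binding protein gene pabpc1b had a log2 fold change of −1.46 (edgeR adjusted p = 0.00413), and the subunits of the CCR4-NOT deadenylase, to which Nanos proteins bind in animals, had −1.22 for cnot9 (edgeR adjusted p = 0.00719) and −0.79 for cnot11 (edgeR adjusted p = 0.0328). In clusters 7 and 8 of the scRNA-seq sheets, the sperm gene izumo1 was in 86.6% and 88.9% of cells. There pabpc1b was in 91.4% and 79.0% of cells, and cnot9 in 80.6% and 69.0%. In clusters 9 and 10, with izumo1 in 67.3% and 55.7%, pabpc1b was in 62.2% and 65.7% and cnot9 in 38.3% and 45.9%. In cluster 1, with izumo1 in 6.0% of cells, pabpc1b was in 88.9% and cnot9 in 62.2%. In clusters 2 to 4, with izumo1 in 0.7% to 1.9%, pabpc1b was in 33.0% to 53.8% and cnot9 in 30.0% to 45.2%. The part of sperm cells in these falls was not tested.

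Of 11 other stem cell and progenitor rows, 0 rose and 4 fell, with a median of −0.09. The largest were id2b with a log2 fold change of −1.56 (edgeR adjusted p = 0.0292), lhx1a, a GDNF-responsive gene in mouse stem cells, with −1.55 (edgeR adjusted p = 0.00796), and foxo1a with −1.02 (edgeR adjusted p = 0.0380). Sperm markers fell in the same libraries, 5 of 7 rows being called, with −4.21 for izumo1 and −3.61 for ropn1l (edgeR adjusted p = 0.00166 and 0.00169). In the cluster sheets lhx1a was in 28.4% and 29.3% of the cells of clusters 7 and 8, against 8.0% and 8.3% of other cells, and id2b in 22.4% of the cells of cluster 7, against 5.6%. The same clusters held izumo1 in 86.6% and 88.9% of cells, and the part of sperm cells in these values was not tested. Of 6 general germ cell rows, 1 rose, the piRNA pathway gene tdrd9 at 253 ± 33.9 CPM in TP and 144 ± 37.7 CPM in CP (log2 fold change 0.81, edgeR adjusted p = 0.0418). Of 15 rows of differentiating spermatogonia and meiotic entry, 1 rose and 9 fell, with a median of −0.89. The synaptonemal complex genes sycp1 and syce1 had log2 fold changes of −3.33 and −2.79 (edgeR adjusted p = 0.00191 and 0.00166), and the meiotic recombination gene msh4 had −2.12 (edgeR adjusted p = 0.0153). In clusters 8 to 10, with izumo1 in 55.7% to 88.9% of cells, sycp1 was in 98.6% to 99.4% and syce1 in 75.1% to 88.9%. In cluster 1, with izumo1 in 6.0% of cells, sycp1 was in 68.2% and syce1 in 64.6%. In clusters 2 to 4, with izumo1 in 0.7% to 1.9%, sycp1 was in 17.6% to 26.6% and syce1 in 12.0% to 26.4%. In cluster 5, with izumo1 in 4.4%, sycp1 was in 81.9% and no share of syce1 was listed. The part of sperm cells in the falls of these meiotic genes was not tested. Of 3 niche rows, the receptor gene notch2 rose by a log2 fold change of 0.87 (edgeR adjusted p = 0.0152) and rxfp2a, an Insl3 receptor gene, had −0.80 (edgeR adjusted p = 0.0356). In clusters 7 to 10, tdrd9 was in 0.3% to 0.9% of cells and notch2 in 0.5% to 3.7%. In clusters 1 to 3, tdrd9 was in 58.2% to 94.9% and notch2 in 58.6% to 65.6%. The part of sperm cells in the rises of tdrd9 and notch2 was not tested. No Sertoli, Leydig or erythrocyte marker had a row.

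The scRNA-seq cluster sheets listed both members they held for a single cluster. Each sheet lists only part of the 4916 transcripts, from 1448 to 2990. The share of a gene in a cluster whose sheet leaves it out is not known, so this listing does not place a gene in that cluster alone. For each of 10 clusters the sheets give a pair of shares of cells per transcript, without naming the cells. Over 1842 transcripts listed in at least 6 sheets, the median SD between sheets was 24.1% for the first share and 2.5% for the second. The shares were therefore read as those in the cluster and in all other cells, with TCDD and control cells taken as pooled. The paper's methods describe comparing conditions for each cluster, so this reading is an inference. They give neither cell numbers nor values per sample, so these shares are a description with no interval or test. How doublets were treated is not given in the sources used here, and free RNA could not be measured from shares. dnd1 was listed for cluster 1 only, where 84.4% of cells held it, against 2.9% of all other cells, the second widest gap of the 2265 transcripts of that sheet. zbtb16a, under the record XM_009295291 and not the one counted in bulk-seq, was also listed for cluster 1 only, with 38.4% of cells against 1.2% of all other cells, at rank 1021 of 2265. The median share in cluster 1 over its listed transcripts was 58.0%, the highest among the 10 sheets.

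Cluster 1 held other germ cell transcripts as well. tdrd9 was found in 94.9% of its cells against 30.4% of other cells, tdrd1 in 42.6% against 4.5%, asz1 in 79.0% against 23.2%, and piwil1 in 98.8% against 72.0%. These genes were not spread evenly over the clusters: tdrd9 was in 0.3% to 0.9% of the cells of clusters 7 to 10, and piwil1 in 11.9% of those of cluster 10. Of the 4916 transcripts in the sheets, 1352 (27.5%) had their highest listed share in cluster 1. So did 5 of 7 general germ cell transcripts, 3 of 8 RNA-binding partners and 3 of 10 other stem cell and progenitor transcripts, among them the proto-oncogene myca with 66.4% of cells against 9.9%. None of the 14 transcripts of differentiating spermatogonia and meiotic entry did. The antigen presentation genes cd74a and cd74b, which were listed as leukocyte markers, also peaked there, with 44.4% against 5.4% and 34.2% against 5.3%. So did the oocyte marker org (85.6% against 32.7%). Of 10 spermatid and sperm marker transcripts, 1 peaked there, gapdhs (97.6% against 57.4%). It did not follow the sperm gene izumo1: in clusters 8 to 10, gapdhs was in 20.2% to 35.5% of cells and izumo1 in 55.7% to 88.9%. The cluster is therefore called by its number.

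**Figure D4:**
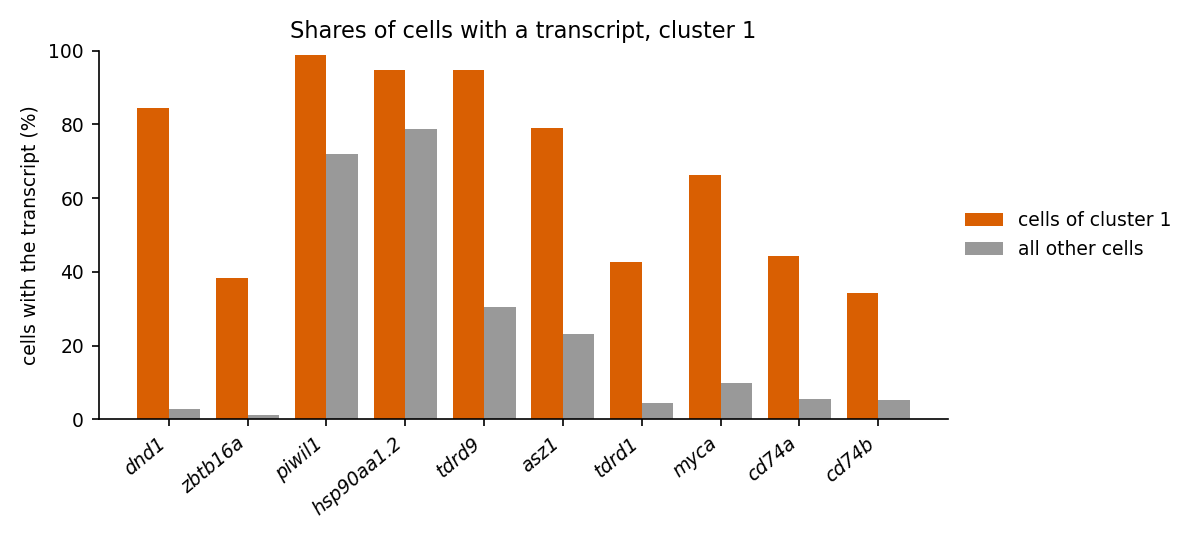
Share of cells (%) with each transcript in cluster 1 and in all other cells, for the members dnd1 and zbtb16a, 5 general germ cell genes, the stem cell list gene myca and the leukocyte marker genes cd74a and cd74b. dnd1 is at 84.4% against 2.9%, a wider gap than that of any other gene shown, and piwil1, at 98.8% against 72.0%, is also in most other cells.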

How the data were processed

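Testes of zebrafish were profiled as 3′ mRNA bulk-seq (CD, CI, TB, CB) and droplet-based scRNA-seq (TP, CP). The authors deposited raw counts per RefSeq mRNA accession, from single-end 50 bp reads aligned to GRCz11 for bulk-seq and from Cell Ranger (version 6.01 in the submitters' processing notes) and Seurat 4.0.4 for scRNA-seq, with cells of at least 500 features and clusters of at least 30 cells; the counting program for bulk-seq is not given in the sources used here. The deposited cluster sheets give shares of cells as a fraction, shown here as percent. Columns of the authors' own fold changes and p-values hold their comparisons and were not used, and 0 per-sample columns of the tables used were left over; the tables CPxCB and TPxTB were not used here.

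Accessions were given gene symbols through RefSeq (assembly GRCz12tu), which named 97.6% of the rows in bulk-seq tables and 85.2% of those in pseudo bulk-seq. In TBxCB the counts run in the reverse row order to the accessions: levels correlated with CDxCI at r = −0.94 over 14792 rows as deposited and at 0.98 once reversed, and deviations from neighbouring rows correlated at 0.223 once reversed, against 0.036 and 0.028 with a further shift by 1 row, so the counts were reversed. Its columns scC and scT were taken as the bulk CB and TB libraries, since the table is the bulk comparison; they were assigned by group and numbered as in the column names. In CDxCI the column names were followed for the groups.

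Low rows were dropped by filterByExpr with default settings. After TMM scaling, groups were compared with edgeR 4.0.16 (quasi-likelihood, robust) in R 4.3.3, with Benjamini-Hochberg adjustment over all rows tested. Each comparison was fitted on its own libraries without a block. Alternatives were DESeq2 1.42.0, RLE factors, other filters, the replicate number as a block and each library left out. On simulated data, 97.5% (CDxCI, 12736 rows), 95.5% (TBxCB, 12685 rows) and 100% (TPxCP, 6847 rows) of rows changed 4-fold were recovered. The simulation gave every row the same fixed spread, not taken from the libraries, and left out rows with few counts. It checks that the fit runs correctly and does not give the chance of finding a change in a member. Floors are 3 counts per library and cover counting error only. Every member row is named; from other lists, the rows at an adjusted p under 0.05, at most 3 per list and comparison by size of change. Members and lists were chosen with earlier results of these data known.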

Additional observations from a re-analysis of the deposited data

Results flagged for a closer look

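For 5 genes of the lists of related and marker genes, the TCDD effect differed between the methods at an adjusted p under 0.05. The measure is TP over CP minus TB over CB on the log2 scale, from a single edgeR fit over 4388 rows (quasi-likelihood interaction test). Only list genes already named for TPxCP were looked up. They were picked for passing there with the largest changes, so a difference was favoured in advance. The difference was −1.43 for pabpc1b (adjusted p = 0.0245), −3.78 for the meiotic gene sycp1 (adjusted p = 0.0054) and −2.95 for syce1 (adjusted p = 0.00609). It was −4.28 for the sperm gene izumo1 (adjusted p = 0.00611) and −3.41 for the sperm gene ropn1l (adjusted p = 0.00716). This fit took the libraries as independent, although bulk-seq and pseudo bulk-seq libraries came from the same suspensions. With the replicate number as a block, 398 rows were called, against 307 without it. With CP replicate 1, 2 or 3 left out, 148, 306 and 180 rows were called. Leaving out a TP or TB library leaves 1 library in its group, and the number called then varied far more widely. The 5 differences are therefore not shown to hold without each of these libraries. The 5 genes were not followed singly under the block or with a library left out. The part of sperm cells in their differences was not tested. No member had the same record in both tables.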

How the results depend on the processing

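Of 154 values of members under the alternatives, 137 kept their direction and their side of the threshold, 4 passed it only in the alternative (zbtb16a in CDxCI with DESeq2, with the replicate block and without CI replicate 1, and dazl in TBxCB without TB replicate 1) and 13 turned sign, all for log2 fold changes that did not pass the test. Part of this agreement could not have come out otherwise. In TBxCB, every edgeR alternative except that without TB replicate 1 called 0 rows in all, so no member could pass there. In TPxCP the other filters kept all 6847 rows and gave the main fit again. gfra1a had no adjusted p from DESeq2 in CDxCI or TBxCB and was counted among those keeping their side. In CDxCI, dnd1 was 0.023 without CD replicate 3, with −0.572 to 0.023 over the single libraries left out. In TBxCB, sall4 was 0.034 with DESeq2, 0.036 with RLE factors, 0.005 with a stricter filter, 0.034 without TB replicate 1, 0.014 without TB replicate 2 and 0.203 without CB replicate 2, with −0.084 to 0.203 over the single libraries left out. dnd1 was −0.001 with no filter, −0.005 with the replicate block, −0.495 without TB replicate 2 and −0.115 without CB replicate 2, with −0.495 to 0.413 over the single libraries left out. Likewise gfra1a was −0.88 without TB replicate 1 and lay between −0.88 and 1.471, and zbtb16a was −0.106 without TB replicate 2 and lay between −0.106 and 0.969. A group left with 1 library was assumed to vary like the other.

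Over all rows, DESeq2 called 781 rows in CDxCI, 11 in TBxCB and 633 for the difference between methods, against 283, 0 and 307 with edgeR, and put 385 rows of TBxCB past the DEG thresholds, against 168. Leaving out each library gave 105 to 333 calls in CDxCI, 0 to 698 in TBxCB, 397 to 2853 in TPxCP and 1 to 1542 for the difference between methods, and 32 to 1473 rows past the DEG thresholds in TBxCB; the 698 and 1473 are those without TB replicate 1. With the replicate block, rows called were 367 in CDxCI, 0 in TBxCB, 2479 in TPxCP and 398 for the difference between methods, and 29 rows of TBxCB passed the DEG thresholds. zbtb16a in CDxCI was the 1 member whose call it changed. Deviations of libraries with the same number correlated at 0.26, 0.04 and −0.06 in CDxCI, which does not show which libraries share a fish. They were −0.02 and −0.09 in TBxCB and 0.26 and 0.42 in TPxCP, where TCDD and control testes came from different fish and 2 pairs do not decide the matter. gfra1a had under 40 counts in every bulk-seq library. It had 2 counts in CB replicate 2, which held 36172885 in total, and 32 in TB replicate 1, which held 13242441. The part of depth in its values was not tested.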
